A study of Homo sapiens with 3 samples.

Results

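The genes described here are the WNT ligands, their receptors and their antagonists, measured by RNA-seq in TE5 cells in which the transcription factor KLF5 was targeted. They are the protein-coding genes named WNT, FZD, DKK or SFRP with a number, together with LRP5, LRP6, AXIN2, RNF43, ZNRF3, LGR4, LGR5 and WIF1. The rule used names, not measured values, and gave 45 of the 52992 genes summed. Of the 45, 38 had at least 10 estimated counts in some library and were tested, among 20828 such genes in all.

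TE5 is an established line of human esophageal squamous cell carcinoma. The shKLF5 group was 2 libraries of TE5 cells that received a short hairpin RNA against KLF5, and the scramble group was 1 library of TE5 cells that received a scrambled construct. Both groups were collected at 48 h. The shKLF5 libraries carry the numbers 1 and 2, and no label tells if these stand for different hairpins or different cultures. The p-values set shKLF5 against scramble on a spread estimated from the shKLF5 libraries and moderated over all genes. That spread may be technical, and the lone scramble library was assumed to vary as the others do.

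WNT proteins are secreted, lipid-modified ligands that bind frizzled receptors. When a ligand joins a frizzled to LRP5 or LRP6, beta-catenin is stabilised and TCF/LEF target genes are switched on, while other ligands act through frizzleds on cell polarity and movement. DKK, SFRP and WIF1 proteins restrain the signal outside the cell, and RNF43 and ZNRF3 clear frizzleds from the membrane unless R-spondins engage LGR4 or LGR5. In the foregut, WNT signalling is known for its part in separating trachea from esophagus.

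The libraries held 33544752 and 32720563 estimated counts in shKLF5 libraries 1 and 2 and 33448976 in scramble. KLF5 had 1333 and 1531 counts in shKLF5 libraries 1 and 2, against 8402 in scramble, a log2 fold change of -2.96 (SE 0.34). By edgeR's quasi-likelihood test with Benjamini-Hochberg adjustment its adjusted p was 0.169, and by DESeq2 it was 1.311e-06. The shKLF5 libraries stood apart from each other in many WNT genes, so each value below is given per library. SOX2, one of the other factors of the study's circuit, had 220 and 62.8 CPM (counts scaled to a common library size by trimmed means of M values, TMM) in shKLF5 libraries 1 and 2 and 222 CPM in scramble. TP63 had 138 and 58.8 CPM in shKLF5 and 315 CPM in scramble. All 6 squamous markers examined were detected, with summed TPM (a level scaled by transcript length) of 878 and 454 in shKLF5 and 3319 in scramble. The 7 fibroblast markers summed to 26.7 and 15.8 TPM in shKLF5 and 17.4 TPM in scramble. The 4 leukocyte markers summed to 10.2 and 14.1 TPM in shKLF5 and 3.94 TPM in scramble, and 3 endothelial and 5 glandular markers to at most 1.36 TPM in any library, with TFF1 and MUC2 at 0 throughout. The endothelial marker PECAM1 and the glandular marker MUC5AC were also chosen but not found among the summed genes. The part of these markers in the results on WNT genes was not tested, and in bulk RNA fewer cells of a type and less RNA per cell cannot be told apart.

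None of the WNT genes passed the test of shKLF5 against scramble. By edgeR's quasi-likelihood test with Benjamini-Hochberg adjustment 0 of 38 were called, with a smallest adjusted p of 0.466, where 0 of all 20828 genes (0%) were called. DESeq2 called 116 genes (0.557%) and edgeR's legacy fit 22 (0.106%), with 0 of the 38 in either. At an unadjusted p under 0.05 there were 4 of 38 (10.5%), RNF43 higher in shKLF5 and WNT9A, WNT10A and WNT11 lower. The background is 9.65% of all genes, made of 6.10% higher and 3.54% lower, so the share among all tested WNT genes was near that of all genes. By direction 1 was higher and 3 were lower. With a mean of at least 1 CPM the same 4 genes were 14.8% of 27, where the background is 7.73% of all genes (3.31% higher and 4.42% lower).

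After TMM scaling, 11 of the 38 had both shKLF5 libraries above scramble (background 38.0%), 16 had both below (background 36.4%) and 11 had them on opposite sides (background 25.6%). Of the 38, 5 (LGR5, SFRP4, WNT3A, WNT8B and WNT16) reached 10 counts only in shKLF5 libraries, where the background is 18.4% of all genes tested, and 0 only in scramble, where it is 0.749%. The split turned with scaling: by library size alone 18 had both shKLF5 libraries above scramble (background 65.1%) and 6 had both below (background 12.6%). The median log2 fold change of the 38 was -0.31 and that of all genes 0.04. By library size alone these medians were 0.12 and 0.47, so directions here are relative to the TMM scale.

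**Figure D1:**
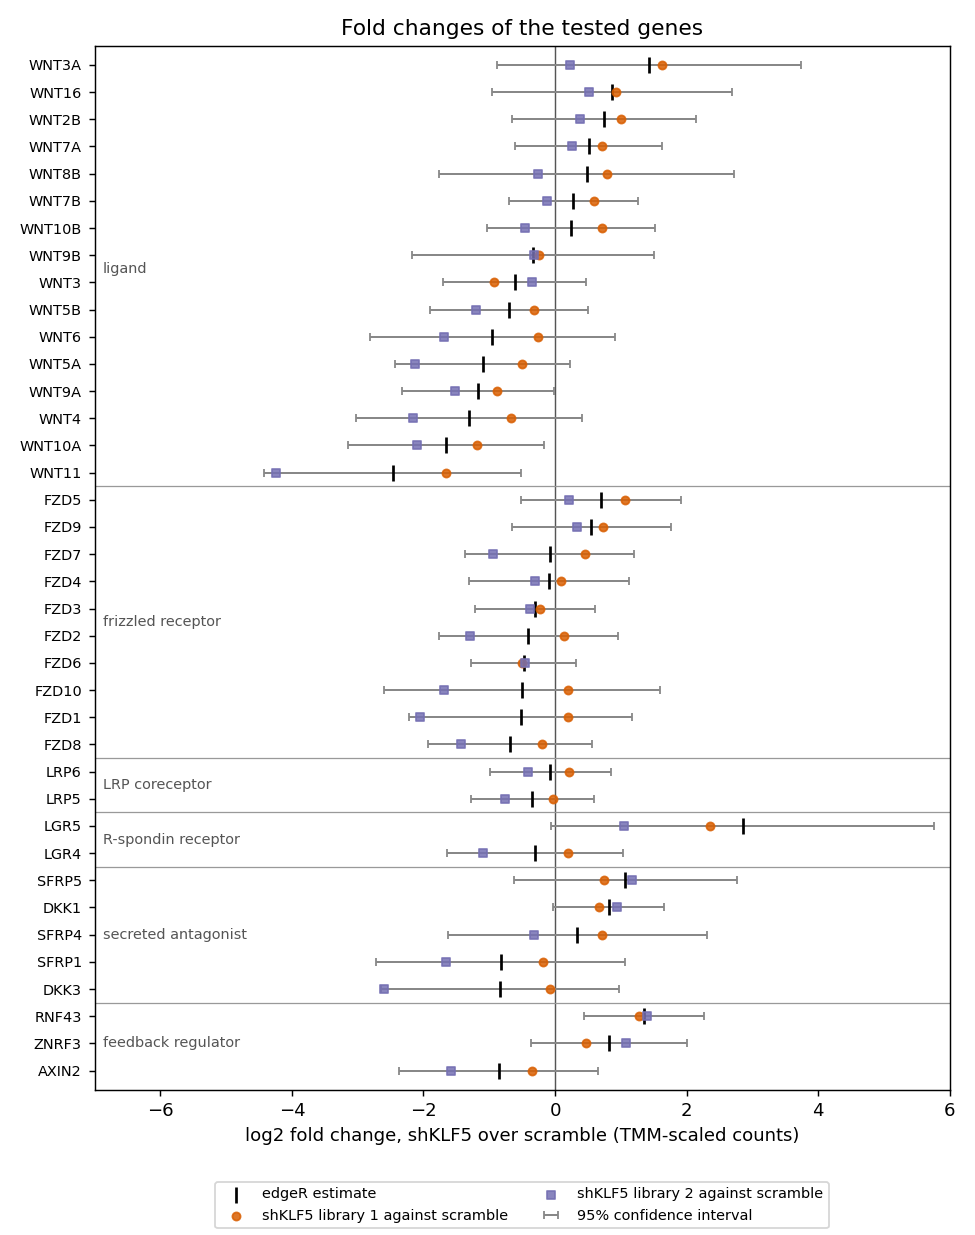
Log2 fold change of shKLF5 over scramble for the 38 tested WNT genes, grouped by role, with edgeR's estimate and 95% confidence interval and the value of each shKLF5 library against the same scramble library. The intervals of 4 genes (RNF43, WNT9A, WNT10A and WNT11) exclude 0, and in 22 genes the gap between the shKLF5 libraries exceeds the size of the estimate.

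The promoters of RNF43 and DKK1 are shown because these abundant genes had both shKLF5 libraries above scramble and close to each other. Each run is the 250 bases before the RefSeq start on GRCh38.p14, 5′ to 3′ on the strand of the gene. Capitals mark the CACCC box (CACCC, or GGGTG on the other strand) and the GC box (GGGCGG or CCGCCC), both bound by KLF and SP factors. They also mark the TCF/LEF core, searched only as CTTTGA or TCAAAG, so any other spelling is neither marked nor counted.
RNF43, chr17:58417535-58417784, minus strand: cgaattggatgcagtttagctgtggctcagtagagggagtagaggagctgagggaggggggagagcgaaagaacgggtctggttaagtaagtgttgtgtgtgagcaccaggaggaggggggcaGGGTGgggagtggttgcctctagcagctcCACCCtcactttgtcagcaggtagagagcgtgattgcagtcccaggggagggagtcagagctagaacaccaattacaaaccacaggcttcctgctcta
DKK1, chr10:52314031-52314280, plus strand: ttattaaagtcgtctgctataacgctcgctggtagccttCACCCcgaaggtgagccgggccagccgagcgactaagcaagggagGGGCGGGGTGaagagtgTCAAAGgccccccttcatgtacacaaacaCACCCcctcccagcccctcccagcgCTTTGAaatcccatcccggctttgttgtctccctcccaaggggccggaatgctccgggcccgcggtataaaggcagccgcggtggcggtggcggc
The RNF43 window, at the start of RNF43-208, held 2 CACCC boxes, 0 GC boxes and 0 TCF/LEF cores. A second RefSeq window of RNF43, at the start of RNF43-202, is not printed and held 1 CACCC box and 0 of the others. The DKK1 window held 3 CACCC boxes, 1 GC box and 2 TCF/LEF cores, and there the GC box overlaps a CACCC box. RefSeq windows matched 29 of the 45 genes. Of the 28 windows of tested WNT genes, 20 (71.4%) held a CACCC box, 20 (71.4%) a GC box and 1 (3.57%, that of DKK1) a TCF/LEF core. Among the 17153 windows of all tested coding genes the shares were 59.1%, 60.1% and 8.47%. A match describes letters only, and where there is none this says only that these letters are not in this window.

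WNT5A and WNT7B were the most abundant ligands by TPM in every library. WNT5A, which mostly signals without beta-catenin, had 3573 and 1126 counts in shKLF5 libraries 1 and 2, against 3762 in scramble. Its level was 28.2 and 9.74 TPM in shKLF5 and 25.7 TPM in scramble, and its log2 fold change was -1.10 (SE 0.58). Library 2 was the low one, and library 1 stood closer to scramble. The antisense gene WNT5A-AS1 overlaps it and had 142 and 35 counts in shKLF5 and 158 in scramble. With the use of strand not stated, reads from any transcript sequence that the 2 genes share are divided by estimate. WNT7B, an epithelial ligand that can act through beta-catenin, had 2388 and 1415 counts in shKLF5, against 1175 in scramble. On the TMM scale that was 66.7 and 40.7 CPM in shKLF5 and 44.2 CPM in scramble, so the shKLF5 libraries lay on either side of scramble.

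WNT11, a ligand of cell movement in development, had the lowest log2 fold change of the tested WNT genes. WNT11 (ENSG00000085741, GRCh38 chromosome 11, 76186325 to 76210736) had 98 and 14 counts in shKLF5 libraries 1 and 2, against 232 in scramble. Both shKLF5 libraries were below scramble, but library 1 was 6.80-fold above library 2. In CPM this was 2.74 and 0.402 in shKLF5 and 8.73 in scramble, an estimate of -2.47 on the log2 scale (SE 0.85, with -4.43 to -0.51 as the 95% interval) and an adjusted p of 0.466 by edgeR's quasi-likelihood test. Set alone against scramble, library 1 gave -1.65 and library 2 gave -4.24.

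WNT10A, a ligand of skin and its appendages, had 29 and 14 counts in shKLF5 libraries 1 and 2, against 51 in scramble. WNT10A (ENSG00000135925, chromosome 2, 218880363 to 218899581) stood at 0.810 and 0.402 CPM in shKLF5 and 1.92 CPM in scramble. The estimate was -1.65 on the log2 scale (SE 0.65, with -3.14 to -0.17 as the 95% interval), with an adjusted p of 0.481 by edgeR's quasi-likelihood test. Both shKLF5 libraries were below scramble, at counts so low that the estimate is imprecise. WNT9A, a ligand known from joint formation, had 172 and 106 counts in shKLF5 and 236 in scramble, with a log2 fold change of -1.18 (SE 0.50) and an adjusted p of 0.511 in the same edgeR test.

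The other ligands with a mean of at least 1 CPM were spread on both sides of scramble. WNT7A had 359 and 255 counts in shKLF5 and 162 in scramble, and WNT2B had 118 and 74 in shKLF5 and 43 in scramble. WNT10B had 663 and 287 counts in shKLF5 and 300 in scramble, and WNT5B had 268 and 140 in shKLF5 and 249 in scramble. WNT7A and WNT2B had both shKLF5 libraries above scramble in CPM, WNT5B had both below, and WNT10B had them on opposite sides. WNT3, a beta-catenin ligand, had 206 and 300 counts in shKLF5 and 292 in scramble, and was the ligand with library 2 above library 1. WNT2B overlaps ST7L and WNT5B overlaps FBXL14, each on the opposite strand.

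WNT3A, WNT4, WNT6, WNT8B, WNT9B and WNT16 had at most 40 counts in any library. WNT1, WNT2 and WNT8A stayed under the limit for testing, with at most 4 counts in a shKLF5 library and 0 in scramble. Summed over the 19 ligands, the level was 79.4 and 37.2 TPM in shKLF5 and 59.4 TPM in scramble. On the TMM scale, on which these sides depend, 4 of the 16 tested ligands had both shKLF5 libraries above scramble (background 38.0%), 9 had both below (36.4%) and 3 had them on opposite sides (25.6%).

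**Figure D2:**
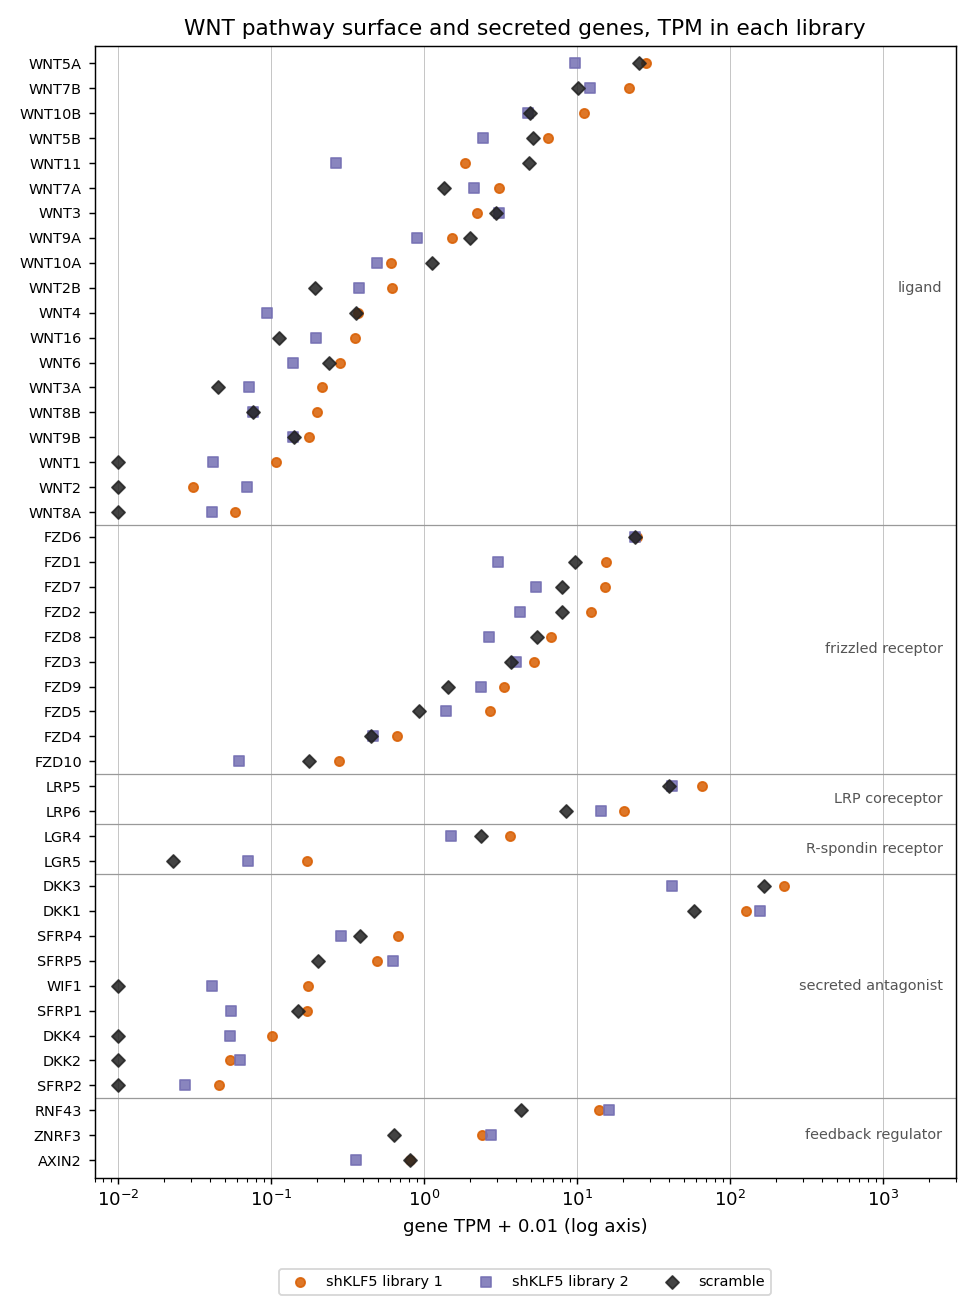
TPM of the 45 WNT genes by role in shKLF5 library 1, shKLF5 library 2 and scramble, plus 0.01 and on a log axis, each symbol being 1 library. DKK3 and DKK1 lie at the top (226 and 42.1 TPM for DKK3 and 127 and 159 TPM for DKK1 in shKLF5, against 167 and 58.2 TPM in scramble), and RNF43 stands at 13.9 and 16.2 TPM in shKLF5 and 4.32 TPM in scramble.

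FZD6 was the most abundant frizzled receptor in every library and differed little between them. FZD6, which takes part in planar polarity, had 2470 and 2484 counts in shKLF5 libraries 1 and 2, against 2600 in scramble. Its level was 24.6 and 23.9 TPM in shKLF5 and 24.0 TPM in scramble. The log2 fold change from CPM was -0.48 (SE 0.34), and on log2(TPM + 1) it was 0.01, so its direction depends on the scale.

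FZD1, FZD2, FZD7, FZD8 and FZD10 were instead at least 2-fold higher in shKLF5 library 1 than in library 2. FZD1, a receptor for beta-catenin signalling, had 1936 and 394 counts in shKLF5 libraries 1 and 2, against 1248 in scramble. FZD7, a receptor linked to stem cells, had 1677 and 618 counts in shKLF5 and 908 in scramble. FZD2, a receptor of WNT5A, had 674 and 240 counts in shKLF5 and 453 in scramble. In these 3 receptors scramble lay between the shKLF5 libraries. FZD8 had 608 and 249 counts in shKLF5 and 516 in scramble, and FZD10 had 25 and 5 in shKLF5 and 16 in scramble. On the TMM scale FZD8 had both shKLF5 libraries below scramble, at 17.0 and 7.16 CPM against 19.4 CPM.

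FZD5 and FZD9 were the frizzleds with both shKLF5 libraries above scramble on the TMM scale. FZD5 had 523 and 280 counts in shKLF5 and 185 in scramble, and FZD9 had 216 and 159 in shKLF5 and 96 in scramble. FZD3 had 662 and 580 counts in shKLF5 and 577 in scramble. On the TMM scale both its shKLF5 libraries were below scramble, at 18.5 and 16.7 CPM against 21.7 CPM. FZD4 had 141 and 103 counts in shKLF5 and 98 in scramble, and overlaps PRSS23 on the opposite strand, which had 716 and 1242 in shKLF5 and 508 in scramble. In CPM the shKLF5 libraries of FZD4 lay on opposite sides of scramble (3.94 and 2.96 against 3.69). None of the 10 frizzleds had an unadjusted p under 0.05 in edgeR's quasi-likelihood test, where the background is 9.65% of all genes. Their summed level was 86.7 and 47.4 TPM in shKLF5 and 61.8 TPM in scramble.

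The coreceptors LRP5 and LRP6, which pair with a frizzled in beta-catenin signalling, were well expressed. LRP5 had 4891 and 2861 counts in shKLF5 libraries 1 and 2, against 3701 in scramble, with a log2 fold change of -0.35 (SE 0.40). LRP6 had 3034 and 1922 counts in shKLF5 and 1952 in scramble, with a log2 fold change of -0.07 (SE 0.40). For both, the estimate was smaller than its SE, and its sign turned on other scales. In TPM, LRP6 stood at 20.4 and 14.4 in shKLF5 and 8.54 in scramble. Part of that gap was a short transcript: LRP6-205, of 593 bases, had 66 and 58 counts in shKLF5 and was listed at 0 in scramble, or 5.13 and 4.30 TPM in shKLF5. The full-length LRP6-201 had 1757 and 1044 counts in shKLF5 and 1387 in scramble. The short LRP5-205, of 586 bases, likewise made 30.7 and 17.1 of the LRP5 TPM in shKLF5 and 15.0 in scramble, with 387 and 226 counts in shKLF5 and 196 in scramble.

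LGR4, an R-spondin receptor, had 468 and 184 counts in shKLF5 libraries 1 and 2, against 302 in scramble, with scramble between them. LGR5, its relative and a marker of intestinal stem cells, had 16 and 5 counts in shKLF5 and 1 in scramble. All 4 R-spondins, their ligands, had at most 9 counts in any library.

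DKK1, which binds LRP5 and LRP6 and keeps them from WNT, had both shKLF5 libraries above scramble. DKK1 (ENSG00000107984, chromosome 10, 52314296 to 52318042) had 4337 and 5103 counts in shKLF5 libraries 1 and 2, against 2026 in scramble. In CPM it averaged 134 ± 18.1 in shKLF5 (SD, n = 2) and 76.2 in scramble. The gap to scramble was larger than that between the shKLF5 libraries. The estimate was 0.81 on the log2 scale (SE 0.37, with -0.04 to 1.66 as the 95% interval), with an adjusted p of 0.531 by edgeR's quasi-likelihood test. The transcript DKK1-201 held 87.4% and 82.4% of its counts in shKLF5 and 86.5% in scramble. PRKG1-AS1 overlaps it on the opposite strand, with 63 and 142 counts in shKLF5 and 30 in scramble.

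DKK3, a divergent family member whose role in WNT signalling is less settled, had 11573 and 1940 counts in shKLF5 libraries 1 and 2, against 9023 in scramble. That was 323 and 55.8 CPM in shKLF5 and 339 CPM in scramble. Library 1 was near scramble, and library 2 was 6.09-fold below it. The log2 fold change was -0.84 (SE 0.78), smaller than the gap of 2.53 between the shKLF5 libraries. Its main coding transcript, DKK3-201, had 6973 and 1054 counts in shKLF5 and 5117 in scramble.

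The remaining antagonists were scarce. SFRP5, a decoy that binds WNTs, had 24 and 32 counts in shKLF5 and 10 in scramble, SFRP1 had 21 and 6 in shKLF5 and 18 in scramble, and SFRP4 had 19 and 8 in shKLF5 and 8 in scramble. In CPM, SFRP5 had both shKLF5 libraries above scramble, SFRP1 had both below, and SFRP4 had them on opposite sides. SFRP4 overlaps EPDR1 on the opposite strand, which had 3716 and 165 counts in shKLF5 and 2310 in scramble. DKK2, DKK4, SFRP2 and WIF1 had at most 5 counts in a shKLF5 library and 0 in scramble.

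RNF43, the ubiquitin ligase that removes frizzleds, had the smallest p of the WNT genes. RNF43 (ENSG00000108375, chromosome 17, 58352500 to 58417595, minus strand) had 1542 and 1625 counts in shKLF5 libraries 1 and 2, against 469 in scramble. Both shKLF5 libraries were high and close to each other, at 44.9 ± 2.59 CPM (SD, n = 2), against 17.6 CPM in scramble. The gene was 2.44-fold higher in library 1 and 2.65-fold higher in library 2, an estimate of 1.35 on the log2 scale (SE 0.40, with 0.44 to 2.26 as the 95% interval). Its adjusted p was 0.466 in edgeR's quasi-likelihood test, and over the alternative settings it ran from 0.291 to 0.611.

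The transcripts of RNF43 shared the difference unequally. RNF43-208, with 55.5% and 52.0% of the gene's counts in shKLF5 and 56.5% in scramble, had 856 and 845 counts in shKLF5 and 265 in scramble. RNF43-207 had 227 and 440 counts in shKLF5 and 23 in scramble, its share of the gene being 14.7% and 27.1% in shKLF5 and 4.94% in scramble. RNF43-205 was closer to level, with 84 and 112 counts in shKLF5 and 71 in scramble. SUPT4H1 overlaps RNF43 on the same strand and had 857 and 950 counts in shKLF5 and 586 in scramble, so the division of reads between them is an estimate.

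ZNRF3, the paralog of RNF43 with the same role, had 243 and 360 counts in shKLF5 libraries 1 and 2, against 129 in scramble, with a log2 fold change of 0.82 (SE 0.52). Its transcripts differed: ZNRF3-202 had 157 and 144 counts in shKLF5 and was listed at 0 in scramble, while ZNRF3-203 had 86 and 216 in shKLF5 and 129 in scramble. AXIN2, a scaffold of beta-catenin destruction that is itself a common WNT target, had 78 and 31 counts in shKLF5 and 74 in scramble, with a log2 fold change of -0.86 (SE 0.66). By CPM, ZNRF3 had both shKLF5 libraries above scramble and AXIN2 had both below.

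**Figure D3:**
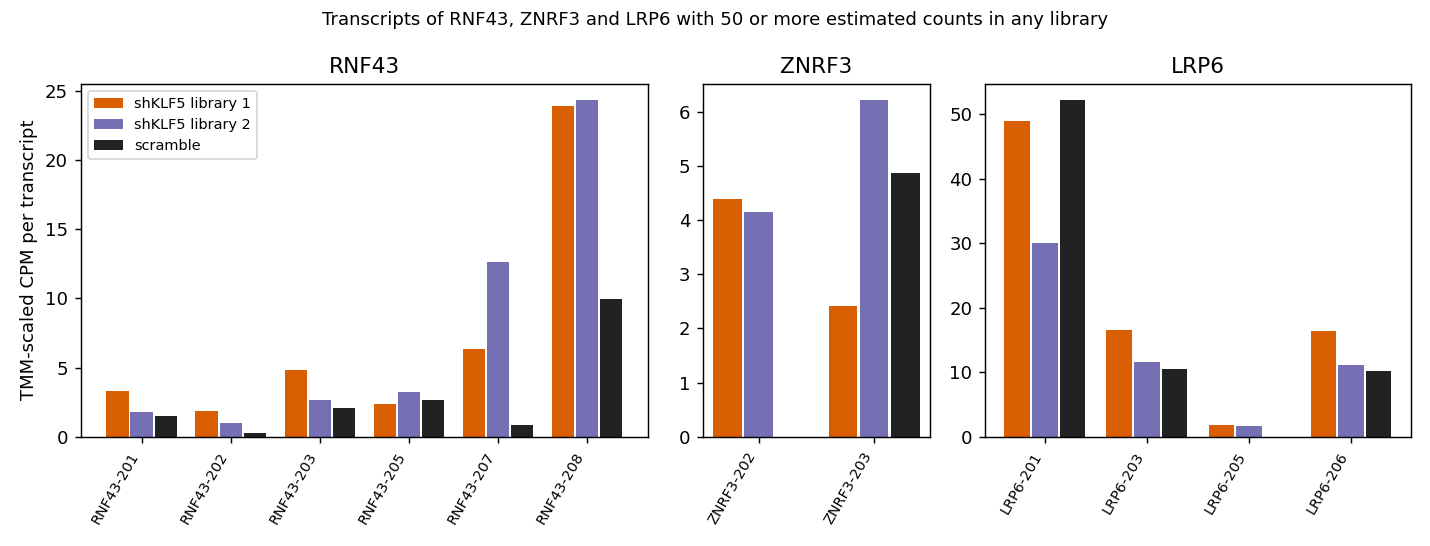
Transcripts of RNF43, ZNRF3 and LRP6 in shKLF5 library 1, shKLF5 library 2 and scramble, for those with 50 or more counts in some library, each bar being 1 library in TMM-scaled CPM. RNF43-208 stands at 23.9 and 24.3 CPM in shKLF5 and 9.97 CPM in scramble, RNF43-207 at 6.34 and 12.6 CPM in shKLF5 and 0.873 CPM in scramble, and ZNRF3-202 is listed at 0 in scramble.

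The WNT genes also differed between the shKLF5 libraries themselves. Of the 38 tested, 19 (50%) were at least 2-fold higher in library 1 than in library 2, where the background is 9.81% of all genes. LGR5, SFRP4, WNT3A and WNT8B are among the 19 and reached 10 counts in library 1 only. They thus passed the count filter only through the library where they were high. In the other direction there were 0 of 38, where the background is 9.01%. Among genes with a mean of at least 1 CPM the count was 11 of 27 (40.7%), with a background of 7.72%, and 0 the other way, with a background of 4.59%. The count of 19 was the same under each scaling tried. Library 1 was above library 2 in 32 of 38 WNT genes (84.2%) and in 49.8% of all genes. With 1 library on each side, this difference has no replicate check and no test.

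The gap spanned roles: it took in 8 of 16 tested ligands, 5 of 10 frizzleds, 3 of 5 tested antagonists, both LGR receptors and AXIN2, but neither LRP5 nor LRP6. These counts include the ligands WNT3A and WNT8B, the antagonist SFRP4 and LGR5, which passed the count filter only through library 1. WNT11 (6.80-fold), DKK3 (5.79-fold), FZD10 (4.86-fold) and FZD1 (4.77-fold) had the widest. RNF43, DKK1, ZNRF3, WNT3, FZD6 and SFRP5 were the 6 genes with library 2 the higher. KLF5 itself differed little, with 37.2 CPM in library 1 and 44.0 CPM in library 2. SOX2, TP63 and the fibroblast, squamous and glandular marker sums were also higher in library 1. The leukocyte (10.2 and 14.1 TPM) and endothelial (1.09 and 1.36 TPM) marker sums were higher in library 2, though PTPRC, KDR and CDH5 among them were higher in library 1. The part of these genes in the gap was not tested.

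**Figure D4:**
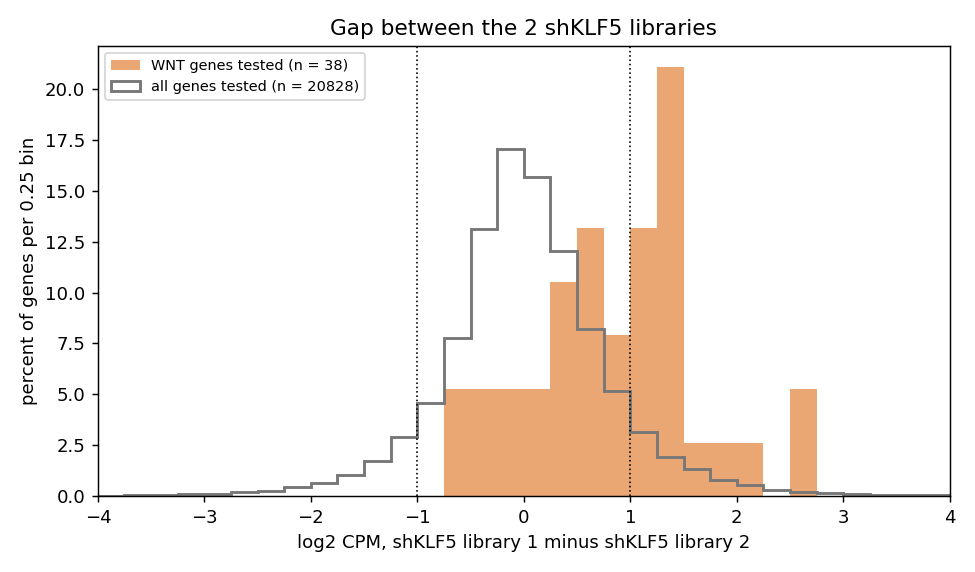
Percent of genes in each bin of the gap between the shKLF5 libraries, as log2 CPM of library 1 minus library 2, for the 38 tested WNT genes (filled) and all 20828 genes tested (outline), with dotted lines at a 2-fold gap. For WNT genes, in 32 of 38 genes the value is above 0, and 19 reach a 2-fold ratio of CPM, with 0 in the other direction. The axis uses a prior count of 2, so WNT10A, 1 of the 19, lies inside the dotted line at 0.909.

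The wider pathway was read from 6 lists of 88 genes, 80 of them tested. None was called by edgeR's quasi-likelihood test, and 9 (11.2%) had an unadjusted p under 0.05, 4 higher and 5 lower, near the background of 9.65%. Of the higher ones, MUSK and NDP reached 10 counts only in shKLF5 libraries. They thus passed the count filter only through the group where they were high. On the TMM scale both shKLF5 libraries were above scramble in 24 (background 38.0%), below in 34 (36.4%) and on opposite sides in 22 (25.6%), and the median log2 fold change was -0.08. Of the 80, 20 (25%) were at least 2-fold higher in library 1 than in library 2 (background 9.81%) and 3 (3.75%) in the other direction (background 9.01%).

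Among 7 genes of WNT secretion and release, 0 had an unadjusted p under 0.05 (background 9.65%), and the median was -0.09. PORCN, which attaches the lipid to WNTs, had 2918 and 3500 counts in shKLF5 and 3188 in scramble. On the TMM scale both its shKLF5 libraries were below scramble, at 81.5 and 101 CPM against 120 CPM. The sulfatases SULF1 and SULF2, which trim the sugars that hold WNTs at the surface, had 2710 and 916 counts (SULF1) and 961 and 314 counts (SULF2) in shKLF5, against 2180 and 703 in scramble. In both sulfatases library 2 was the low one. In CPM, SULF1 had both shKLF5 libraries below scramble (75.7 and 26.3 against 82.0), and SULF2 had them on opposite sides.

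Among 12 other receptors, 1 was higher and 2 were lower at an unadjusted p under 0.05, or 25%. The background is 9.65% of all genes, made of 6.10% higher and 3.54% lower. The lower ones were the DKK receptors. KREMEN2 had 521 and 231 counts in shKLF5 and 870 in scramble, with a log2 fold change of -1.63 (SE 0.50) and an adjusted p of 0.466 by edgeR's quasi-likelihood test. KREMEN1 had 1049 and 396 counts in shKLF5 and 1455 in scramble, with a log2 fold change of -1.43 (SE 0.53). Both shKLF5 libraries were below scramble in each. MUSK, a muscle receptor and the higher one, had 13 and 10 counts in shKLF5 and was listed at 0 in scramble. It passed the count filter only through shKLF5.

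Of 14 other secreted modulators 7 were tested. SOST, the inhibitor sclerostin that binds LRP5 and LRP6, had 1534 and 393 counts in shKLF5 libraries 1 and 2, against 5915 in scramble. Both were below scramble, for a log2 fold change of -3.04 (SE 0.64). Its adjusted p was 0.339 by edgeR's quasi-likelihood test and 0.00232 by DESeq2. SOSTDC1, a related inhibitor, had 1305 and 256 counts in shKLF5 and 1293 in scramble. In CPM both its shKLF5 libraries were below scramble (36.4 and 7.36 against 48.6). NDP, a frizzled ligand outside the WNT family, had 13 and 8 counts in shKLF5 and was listed at 0 in scramble. It too passed the count filter only through shKLF5.

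Of 30 genes of beta-catenin transduction 0 had an unadjusted p under 0.05 (background 9.65%), with a median of -0.05. CTNNB1, beta-catenin itself, named here outside the rule with its values known, had 9132 and 6700 counts in shKLF5 and 8610 in scramble, with a log2 fold change of -0.53 (SE 0.36). The 3 with the smallest p were PYGO1, a coactivator (log2 fold change -0.97, SE 0.48), APC, of the destruction complex (-0.70, SE 0.36), and TCF7, a TCF/LEF factor (1.22, SE 0.67).

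Among 15 tested feedback and common target genes, 1 was higher and 2 were lower at an unadjusted p under 0.05. That was 20%, against 9.65% of all genes (6.10% higher and 3.54% lower). JUN, also a target of stress signals, had 2593 and 8073 counts in shKLF5 and 662 in scramble, with a log2 fold change of 2.61 (SE 0.70) and an adjusted p of 0.452 by edgeR's quasi-likelihood test and 0.0112 by DESeq2. CCND1, the cell cycle gene cyclin D1, had 4197 and 5288 counts in shKLF5 and 6500 in scramble, with a log2 fold change of -0.86 (SE 0.35). ASCL2, an intestinal stem cell factor, had 42 and 13 counts in shKLF5 and 80 in scramble. On the TMM scale, 2 of the 15 had both shKLF5 libraries above scramble (background 38.0%) and 7 had both below (36.4%). The other 6 had them on opposite sides (25.6%).

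Among 12 planar polarity genes, 5 (41.7%) had both shKLF5 libraries above scramble on the TMM scale (background 38.0%) and 7 (58.3%) both below (36.4%). CELSR3, a polarity cadherin, had 966 and 1091 counts in shKLF5 and 299 in scramble, with a log2 fold change of 1.37 (SE 0.42) and an adjusted p of 0.466 by edgeR's quasi-likelihood test. Its paralog CELSR1 (log2 fold change -0.79, SE 0.36) and the membrane protein VANGL1 (-0.80, SE 0.40) had both shKLF5 libraries below scramble.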

How the data were processed

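RNA was total RNA made into TruSeq libraries, per the labels' protocols. Per the submitters' processing notes, which give no versions, kallisto, DESeq2 and hg19 were used. Each library has its own table of transcripts. Its estimated counts, as deposited, are raw and can be fractional, per the file headers. Its TPM column, as deposited, divides counts by effective length and scales the sum to be equal across libraries, per the file headers. Which transcript set was indexed, and whether strand was used, is not given in the sources used here, and reads shared by overlapping genes or paralogs are divided by estimate.

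Of 196354 transcripts, 181857 (92.6%) were matched by identifier to GENCODE 29, whose GRCh38 coordinates are printed. Unmatched ones held 3.42% and 3.40% of counts in shKLF5 and 3.05% in scramble. Counts were summed per gene and rounded. Genes with 10 or more counts in any library were tested with edgeR 4.0.16 (R 4.3.3, TMM scaling, quasi-likelihood F test) with Benjamini-Hochberg adjustment over 20828 genes at 0.05. There was 1 residual degree of freedom beside 7.00 prior degrees of freedom borrowed over all genes, and the biological coefficient of variation was 33.2%. TMM factors were 1.11 and 1.10 in shKLF5 and 0.82 in scramble. Single-library log2 fold changes used a prior count of 2. Intervals cover the model's spread only. The script was tested on simulated data with a smaller spread than these data have, so its power here was not tested. Alternatives were DESeq2 size factors, library size alone, no filter, filterByExpr, edgeR's legacy fit, DESeq2 1.42.0, limma 3.58.1 on log2(TPM + 1) and log2(TPM + 0.1), and leaving out each shKLF5 library.

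Full statistics went to WNT genes with a mean of at least 1 CPM whose shKLF5 libraries both differed from scramble by a log2 of at least 1 on the same side (RNF43, WNT10A and WNT11); those of WNT9A, DKK1, DKK3 and others were added after their values were seen. From each pathway list the 3 genes with the smallest p were named. Members and lists were chosen with earlier results of these data known.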

Additional observations from a re-analysis of the deposited data

How the results depend on the processing

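No WNT gene was called under any setting that gave a test. Leaving out a shKLF5 library gave values without a test. Genes called numbered 0 in the edgeR fit described, 22 with its legacy fit and 116 with DESeq2, and those with an unadjusted p under 0.05 numbered 2009 and, with DESeq2, 1104. Counts of sides, whose alternatives were chosen after seeing the data, moved with scaling: both shKLF5 libraries lay above scramble in 11 WNT genes, or 18 by library size alone and 16 by TPM, and below in 16, or 6 by library size alone and 4 by TPM. Over all genes the TPM shares were 65.1% above and 11.3% below. Of 30 genes checked, 25 kept every sign of the log2 fold change. By library size alone it turned to 0.082 for LRP5, 0.36 for LRP6 and 0.031 for PORCN. With limma on log2(TPM + 1) and log2(TPM + 0.1) it turned to 0.0143 and 0.0148 for FZD6, 0.38 and 0.39 for LRP5, 0.93 and 0.998 for LRP6, and 0.0512 and 0.0517 for PORCN. Leaving out each shKLF5 library gave -0.41 to 0.21 for LRP6, -1.54 to 0.0209 for SULF2 and -4.24 to -1.65 for WNT11. The cause was not tested. No paired analysis was possible because the lone scramble library carries no replicate number. Low counts limit WNT10A and the 11 tested WNT genes under 1 CPM.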
